A study of Mus musculus with 6 samples.

Results

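The ADAM genes encode membrane-anchored proteins with a disintegrin and a metalloprotease domain. They were followed here in RNA-seq of mouse testis cells with and without *Srsf1*, which encodes a splicing factor. Members were taken as every protein-coding gene whose symbol is Adam, a number and at most 1 further letter, which gave 33 genes of 54532 in the table, of which 22046 are protein-coding. The samples are STRA8+ germ cells of mouse testis, STRA8 being a protein of germ cells on their way into meiosis. Control libraries (n = 3) have the genotype Cre in their labels and cKO libraries (n = 3) are labelled as *Srsf1* knockout. The Cre driver, the floxed allele, the strain, the age, the method of isolation and the number of animals per library are not given in the sources used here. Whether the replicates come from separate animals is not given either, so p-values measure the spread between these libraries.

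ADAM proteins fall into groups with different uses. Some, such as ADAM10 and ADAM17, are active proteases that cut other proteins off the cell surface, a step called shedding, which releases growth factors and starts Notch signalling. Others are made almost only in the testis and sit on the surface of sperm, where ADAM2 and ADAM3 are needed for sperm to reach the egg and bind its coat, and many of these lack the catalytic residues. ADAM11, ADAM22 and ADAM23 are not proteases and act in neurons as receptors of LGI proteins. By role, the 33 genes comprised 20 testis ADAM genes, 9 shedding ADAM genes, 3 neural ADAM genes and the epididymal gene *Adam7*.

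*Srsf1* itself was measured first. Its level was 84.68, 45.18 and 51.92 FPKM (fragments on a gene per kilobase of its length, with each library scaled to its size) in control replicates 1, 2 and 3, and 5.082, 4.939 and 5.174 FPKM in cKO replicates 1, 2 and 3. The groups did not overlap, and 8.36% of the control mean was left in cKO (log2 fold change -3.29, SE 0.22, limma adjusted p = 5.65e-05). Libraries held 14447887 to 17310353 fragments on genes. Fold changes from limma are differences of log2(FPKM + 1), cKO against control, which understate the change of low genes, and genes were called at a Benjamini-Hochberg adjusted p of at most 0.05. Counts at an unadjusted p under 0.05 are given without the share of all genes at that threshold, so no excess can be read from them.

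*Stra8* marked both groups, with 222.1 to 261.7 FPKM in control and 242.1 to 312.7 FPKM in cKO. Markers of later germ cells differed far more between the groups. The 8 spermatid markers summed to 2392 to 8142 FPKM in control and to 3.475 to 4.506 FPKM in cKO, 8 of 8 were lower, and *Catsper1* was at 0 in every cKO library. The 8 markers of pachytene spermatocytes summed to 661.6 to 823.9 FPKM in control and to 115.8 to 134 FPKM in cKO, and 7 of 8 were lower, *Mybl1* being the exception. Since 7 of the spermatid and 3 of the pachytene markers had a cKO mean under 1 FPKM and passed the filter of a mean of 1 FPKM through their control level, these counts were partly fixed by it. Without that filter they were again 8 and 7 of 8, against 12.1% of all genes. Markers of spermatogonia summed to 1105 to 1179 FPKM in control and to 1378 to 1432 FPKM in cKO, with 1 of 8 called, *Dazl*, which was higher (11.8% of all genes tested were), 4 higher at an unadjusted p under 0.05 and 3 by limma-voom (16.2% of all genes). Quantile normalization called 6 of these 8 higher (33.4% of all genes), and a fit with a replicate block called 0 (5.77% of all genes). Those of early meiotic prophase summed to 675.1 to 888.8 FPKM in control and 712.7 to 923.5 FPKM in cKO, and 2 of 8 were lower, *Spo11* and *Rec8*, a share near the 22.2% of all genes tested. Control replicate 2 stood apart from the other controls in its spermatid markers, whose level there was 2.86 times the mean of control replicates 1 and 3 (median of 8 genes). It did so too in markers of macrophages and blood (2.85, median of 3 genes tested) and in *Acta2* of peritubular cells (3.18). Summed markers of 5 somatic cell types were at 60.63 to 84 FPKM in control and 57.94 to 98.61 FPKM in cKO. In such bulk samples, fewer cells of a type and less RNA per cell cannot be told apart.

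The family as a whole lost most of its RNA in cKO, and the loss lay in the testis ADAM genes. Summed over the 33 genes, the level was 317.6, 366.0 and 293.4 FPKM in control replicates 1, 2 and 3, and 88.3, 91.7 and 83.9 FPKM in cKO replicates 1, 2 and 3. Testis ADAM genes made up 76.1%, 81.6% and 72.3% of that sum in the control libraries and 5.0%, 3.7% and 4.0% in the cKO libraries. The other 13 members summed to 67.2 to 81.1 FPKM in control and to 80.6 to 88.2 FPKM in cKO, ranges that overlap. In cKO the shedding ADAM genes therefore held 89.6% to 90.4% of the family's RNA, against 17.2% to 26.0% in control.

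**Figure D1:**
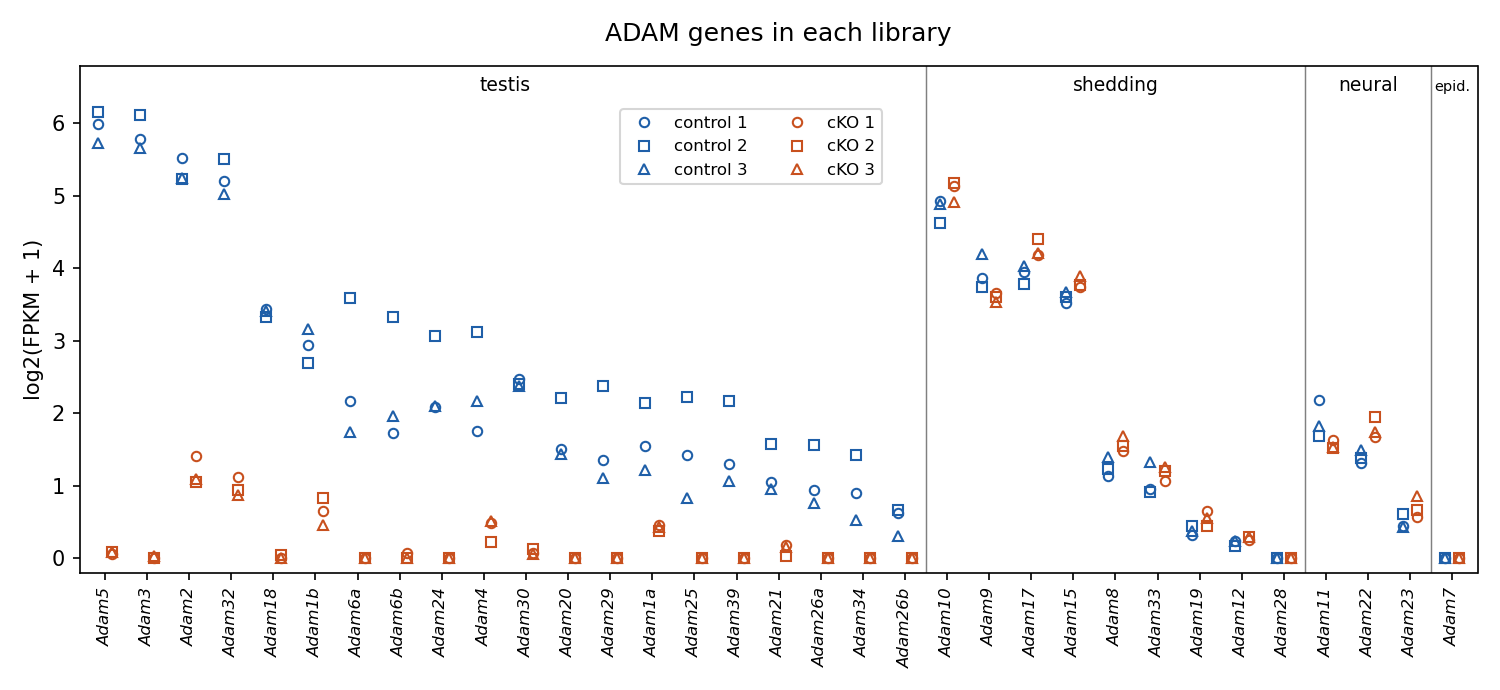
The 33 ADAM genes along the x axis, ordered by role and by control mean, with log2(FPKM + 1) on the y axis. Each mark is 1 library (circle, square and triangle for replicates 1, 2 and 3, blue for control and orange for cKO), and the 20 testis ADAM genes are lower in all cKO libraries than in any control library.

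Of the 33 members, 24 reached 1 FPKM on average across the 6 libraries and were tested with limma. Of these, 16 were lower in cKO and 1 was higher, against 22.2% lower and 11.8% higher among all 15451 genes tested. The median log2 fold change was -1.66 for the 24 members and -0.01 for all genes tested. Of the 16 testis ADAM genes tested, 15 had a cKO mean under 1 FPKM and passed the filter through their control level, *Adam2* being the exception, so their being called lower was partly fixed by the filter. A fit without the filter took in 35994 genes and 31 members. There, 20 members were lower, namely each of the 20 testis ADAM genes, against 12.1% of all genes. No member was higher in that limma fit, against 4.37% of all genes, although 3 members had an unadjusted p under 0.05 in that direction. On the filtered genes, limma-voom called 3 members higher and 16 lower, where 16.2% and 21.5% of all genes were called. Quantile normalization called 6 higher and 13 lower, where 33.4% and 16.4% of all genes were called. The fall of the testis ADAM genes went with that of the spermatid and pachytene markers given above, whose part in it was not tested. Over all 33 members, 22 had every cKO library below every control library (20.3% of the 35994 genes did) and 6 had every cKO library above (14.0%).

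The genes behind these values differ in structure. Per the GENCODE annotation, 15 of the 20 testis ADAM genes have their whole coding sequence in 1 exon. The other 5, *Adam2*, *Adam3*, *Adam5*, *Adam18* and *Adam32*, have 19 to 22 coding exons. Shedding and neural members have 16 to 30. All 33 encode proteins of like length, with 697 to 927 codons.

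Promoter sequences were read for part of the family. RefSeq promoters (GRCm38.p6, 250 bases before the start and 50 after) matched 17 of the 33 members, 10 testis and 7 shedding or neural genes, with 19 promoters in all. Not all lie at the annotated start of the gene, since those of *Adam34* and *Adam1a* and some of the 3 of *Adam19* lie elsewhere. The 10 testis genes all have 1 coding exon, so the promoters of *Adam2*, *Adam3*, *Adam5*, *Adam18* and *Adam32* were not analysed here. G and C made up 35.3% to 51.0% of the testis ADAM promoters (median 39.5%) and 49.3% to 73.3% of the others (median 65.3%), with a median of 52.7% over all 32851 promoters. CG dinucleotides numbered 0 to 4 in the former and 5 to 32 in the latter, against a median of 7 over all promoters. The lowest values of the latter, 49.3% and 5 CG, are of an *Adam19* promoter away from the gene start. The *Adam19* promoter at the gene start has 60.3% and 11 CG. The GC box GGGCGG, on either strand, was in none of the 10 testis ADAM promoters, in a promoter of each of the 5 shedding genes and in neither of the 2 neural promoters, and 35.7% of all promoters held it. Promoters are printed below for 2 testis genes that were at 0 in cKO, *Adam25* (chr8:40751958-40752257, plus strand) and *Adam20* (chr8:40793023-40793322, plus strand), and for the 2 best known sheddases, *Adam10* (chr9:70678732-70679031, plus strand) and *Adam17* (chr12:21373583-21373882, minus strand). They read 5′ to 3′, with CG dinucleotides in capitals.
Adam25: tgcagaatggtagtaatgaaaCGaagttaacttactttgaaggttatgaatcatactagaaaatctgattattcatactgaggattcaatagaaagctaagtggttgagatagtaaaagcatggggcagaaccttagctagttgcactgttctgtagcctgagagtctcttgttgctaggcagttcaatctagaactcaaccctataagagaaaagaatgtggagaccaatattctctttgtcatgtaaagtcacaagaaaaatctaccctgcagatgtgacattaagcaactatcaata
Adam20: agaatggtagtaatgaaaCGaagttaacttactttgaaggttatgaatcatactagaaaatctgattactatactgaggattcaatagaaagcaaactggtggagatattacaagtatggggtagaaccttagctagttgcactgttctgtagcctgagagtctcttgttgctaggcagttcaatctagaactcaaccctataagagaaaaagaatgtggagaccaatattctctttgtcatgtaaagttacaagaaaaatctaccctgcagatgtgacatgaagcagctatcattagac
Adam10: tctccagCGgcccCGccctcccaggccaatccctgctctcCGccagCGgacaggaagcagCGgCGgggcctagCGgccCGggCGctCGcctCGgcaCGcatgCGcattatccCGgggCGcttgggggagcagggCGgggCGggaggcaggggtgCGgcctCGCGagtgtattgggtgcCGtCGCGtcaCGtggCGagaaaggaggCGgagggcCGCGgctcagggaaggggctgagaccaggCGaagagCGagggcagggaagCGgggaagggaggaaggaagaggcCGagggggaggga
Adam17: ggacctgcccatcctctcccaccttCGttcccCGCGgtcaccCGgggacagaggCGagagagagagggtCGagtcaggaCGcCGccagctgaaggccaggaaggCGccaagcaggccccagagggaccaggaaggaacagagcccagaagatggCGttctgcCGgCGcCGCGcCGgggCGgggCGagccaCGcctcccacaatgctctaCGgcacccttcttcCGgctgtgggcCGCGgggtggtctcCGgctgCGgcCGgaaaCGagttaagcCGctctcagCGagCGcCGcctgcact
The *Adam25* and *Adam20* promoters are 93.4% identical and hold 1 CG each. *Adam10* has 32 CG and 3 GC boxes, and *Adam17* has 30 CG and 1 GC box. Other motifs were searched on either strand. TATAAA was in the promoters of *Adam29*, *Adam6a* and *Adam6b* and in 13.6% of all promoters. The *Adam6a* and *Adam6b* promoters share the stretch that holds it, so these matches are not separate. TGACGTCA was in no member's promoter and in 1.8% of all promoters, and its part TGACG was in that of *Adam10* alone (20.8% of all). GTTGCC was in those of *Adam26b* and *Adam19* (12.5% of all), and AACNG in 10 of 10 testis ADAM promoters but also in 80.3% of all promoters. A match is a description of the letters, and no binding was measured.

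**Figure D2:**
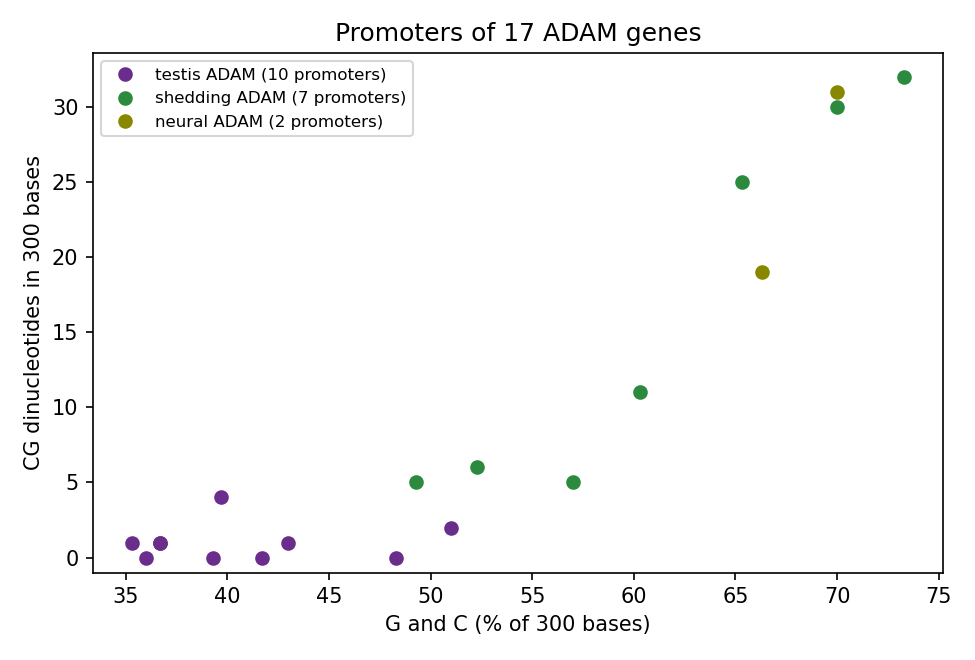
Share of G and C (x axis, % of 300 bases) and number of CG dinucleotides (y axis) in the 19 promoters of 17 ADAM genes, 1 point per promoter, coloured by role. Testis ADAM promoters lie at 0 to 4 CG and the others at 5 to 32, and the points of *Adam20* and *Adam25* coincide.

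The testis ADAM genes with many coding exons had a control mean of 9.519 to 61.76 FPKM, above that of every testis ADAM gene with 1 coding exon, and all fell. *Adam5* was at 62.8, 70.47 and 52.01 FPKM in control replicates 1, 2 and 3, and at 0.04067, 0.06545 and 0.06306 FPKM in cKO replicates 1, 2 and 3, which is 2, 3 and 3 fragments. It fell by 5.88 on the log2 scale (SE 0.12, limma adjusted p = 9.15e-07), and 0.0913% of its control mean was left. *Adam3*, which encodes the sperm protein cyritestin, was at 53.92, 68.63 and 49.64 FPKM in control. In cKO it gave 0, 0 and 1 fragment, against 8234 in the controls. The ratio of control to cKO fragments, scaled to library size, was 7640 (95% exact binomial interval 1370 to 302000, counting error only), with a fitted log2 fold change of -5.84 (SE 0.13, limma adjusted p = 1.14e-06). These genes were close to absent from the cKO libraries.

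*Adam2*, the fertilin beta subunit of the sperm surface, kept a measurable level. It was at 44.85, 36.46 and 36.91 FPKM in control and 1.655, 1.066 and 1.125 FPKM in cKO (log2 fold change -4.15, SE 0.13, limma adjusted p = 3.37e-06), so that 3.25% of the control mean was left. *Adam32* behaved alike, with 35.74, 44.66 and 31.52 FPKM in control and 1.17, 0.9127 and 0.8353 FPKM in cKO (log2 fold change -4.27, SE 0.14, limma adjusted p = 3.7e-06), and 2.61% left. *Adam18* was at 9.848, 9.036 and 9.672 FPKM in control and gave 0, 1 and 0 fragments in cKO (log2 fold change -3.38, SE 0.11, limma adjusted p = 3.45e-06). No group overlapped for any of these 5 genes, and none of their 100-base windows occurred in another gene.

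Of the 15 genes with 1 coding exon, *Adam1b* was the most abundant. It encodes the partner that pairs with ADAM2 on sperm. Its level was 6.711, 5.492 and 7.932 FPKM in control and 0.572, 0.7774 and 0.3745 FPKM in cKO (log2 fold change -2.29, SE 0.17, limma adjusted p = 8.91e-05), with 8.56% left. *Tmem116* overlaps it and 69.7% of its 100-base windows occur in no other gene, so what was left in cKO is uncertain. *Adam30* was close to even among the controls, with 4.556, 4.305 and 4.191 FPKM against 0.05407, 0.0967 and 0.03727 FPKM (log2 fold change -2.33, SE 0.12, limma adjusted p = 2.22e-05). Among the remaining genes, control replicate 2 was above both other controls.

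*Adam4* was at 2.376, 7.738 and 3.486 FPKM in control and 0.4067, 0.1636 and 0.4204 FPKM in cKO (log2 fold change -1.94, SE 0.34, limma adjusted p = 0.00501). *Cox16* and *Gm20498* overlap *Adam4*, and 94.4% of its 100-base windows occur in no other gene. *Adam1a*, the other *Adam1* copy, was at 1.932, 3.398 and 1.332 FPKM in control and 0.373, 0.2911 and 0.3505 FPKM in cKO (log2 fold change -1.22, SE 0.24, limma adjusted p = 0.00877). Its value is uncertain, because *Tmem116*, *Mapkapk5* and 2 other genes overlap it, only 23.5% of its 100-base windows occur in no other gene, and the strand used in counting is not given in the sources used here. *Adam6b* was at 2.312, 9.017 and 2.883 FPKM in control and 0.04997, 0 and 0 FPKM in cKO, which is 2 fragments against 576 in the controls, a scaled ratio of 267 (95% exact binomial interval 73.6 to 2210) with a log2 fold change of -2.31 (SE 0.40, limma adjusted p = 0.00485). Without control replicate 2, which held most of the control fragments, that ratio was 151, an alternative chosen after the data were seen.

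A further 6 tested genes gave no fragment in any cKO library, so only a lower bound on their change can be given, taken at 3 fragments per cKO library. *Adam6a* was at 3.489, 11.04 and 2.35 FPKM in control, at least 72.8-fold higher than that floor (limma adjusted p = 0.00537). *Adam24* had 3.238, 7.345 and 3.284 FPKM, at least 67.5-fold higher (limma adjusted p = 0.000697). *Adam29* had 1.559, 4.188 and 1.145 FPKM, at least 31.7-fold higher (limma adjusted p = 0.00953). These bounds depend on how high a gene was in control, so they give no order of loss. *Adam20* had 1.829, 3.629 and 1.719 FPKM, at least 31.3-fold higher (limma adjusted p = 0.00156). *Adam25* had 1.691, 3.684 and 0.772 FPKM, at least 27.2-fold higher (limma adjusted p = 0.0149). *Adam39* had 1.451, 3.515 and 1.097 FPKM, at least 26.9-fold higher (limma adjusted p = 0.00784). All 6 were detected in each control library. Control replicate 2 set much of these bounds: without it they were 37.8 for *Adam6a*, 18.6 for *Adam29*, 16.3 for *Adam25* and 17 for *Adam39*, also chosen after the data were seen.

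The remaining 4 testis ADAM genes were below the filter and were called lower in the fit without it. *Adam21* was at 1.064, 1.972 and 0.9334 FPKM in control and 0.1312, 0.02346 and 0.113 FPKM in cKO (limma adjusted p = 0.0135). *Adam26a* had 0.9268, 1.94 and 0.6968 FPKM in control and *Adam34* had 0.8693, 1.692 and 0.4474 FPKM, both with no fragment in cKO (limma adjusted p = 0.0185 and 0.0342). *Adam26b* was at 0.5394, 0.5797 and 0.2335 FPKM, also with none in cKO (limma adjusted p = 0.019). Over all 20 testis ADAM genes, the median ratio of control to cKO was 31, with the 9 genes that were at 0 in cKO set at their lower bound. The range ran from 5.65, a bound, to 7700. Fitted on the log2(FPKM + 1) scale without the filter, the median of the 20 was -2.12.

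Some members are close copies of each other. The coding sequences of *Adam25* and *Adam39* are 95.6% identical, those of *Adam6a* and *Adam6b* 94.6% and those of *Adam26a* and *Adam26b* 94.0%. How reads that match both copies were counted is not given in the sources used here, so the split of the level within each pair is uncertain. Both members of each of these pairs were lower in cKO.

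**Figure D3:**
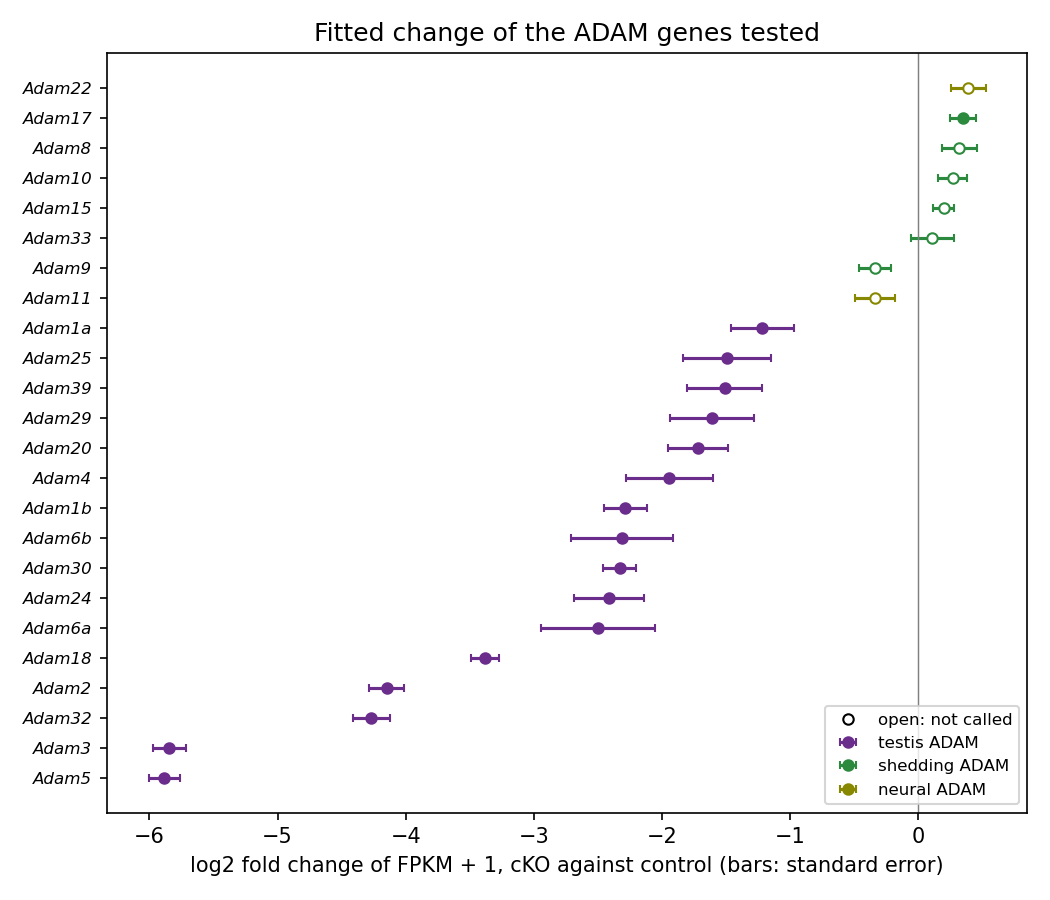
Fitted log2 fold change of FPKM + 1 (x axis, cKO against control) for the 24 ADAM genes tested, with bars for the standard error and colours for the role. Filled points were called, open points were not, and the 16 testis ADAM genes lie between -5.88 and -1.22.

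Control replicate 2 was above the other controls for many testis ADAM genes with 1 coding exon. For the 15 genes with 1 coding exon, the level in control replicate 2 was 0.75 to 3.78 times the mean of control replicates 1 and 3 (median 2.39), and 12 of the 15 were above 1.5 times. *Adam6a* was highest at 3.78, followed by *Adam6b* at 3.47 and *Adam29* at 3.10. The 3 exceptions were *Adam1b* at 0.75, *Adam30* at 0.984 and *Adam26b* at 1.5. For the 5 genes with many coding exons the ratio was 0.892 to 1.33 (median 1.23), and for shedding and neural members 0.688 to 1.49 (median 0.86). Spermatid markers had a median ratio of 2.86 and pachytene markers one of 0.978 in the same library. Of the pachytene markers, *Pgk2* was at 2.34 and *Hspa1l* at 2.84. The 3 macrophage and blood markers tested had a median ratio of 2.85, and *Acta2*, the 1 peritubular marker tested, was at 3.18. Sertoli markers had a median ratio of 0.741 and Leydig markers one of 1.03. These ratios come from 1 library and carry no test, and the part of germ cell stage or somatic cells in them was not tested.

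Without control replicate 2, the 16 testis ADAM genes tested were called lower as before. *Adam6a* then had a log2 fold change of -1.96 (limma adjusted p = 0.00033), *Adam29* one of -1.23 (limma adjusted p = 0.00109) and *Adam25* one of -1.13 (limma adjusted p = 0.00815).

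**Figure D4:**
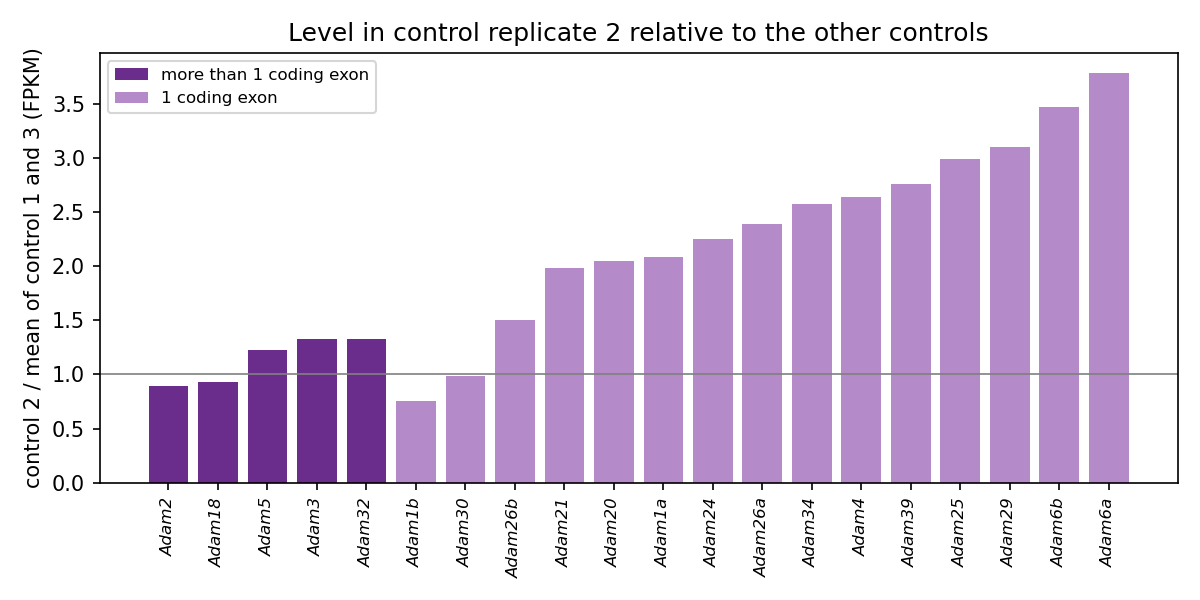
Level of each of the 20 testis ADAM genes in control replicate 2, divided by the mean of control replicates 1 and 3 (y axis, ratio of FPKM, grey line at 1). Dark bars are the 5 genes with more than 1 coding exon (0.892 to 1.33) and light bars the 15 genes with 1 coding exon (0.75 to 3.78), each bar being 1 ratio with no error.

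Many members lie side by side in the genome. The longest run (GRCm38, chr8:24602246-25016927) holds *Adam18*, *Adam3*, *Adam5*, *Adam32* and *Adam9* on the minus strand over 414.7 kb, with no other protein-coding gene between them. The first 4 are testis ADAM genes and were lower in cKO. *Adam9*, at the end of the run, is a widely expressed shedding gene and was at 13.57, 12.4 and 17.28 FPKM in control and 11.6, 11.14 and 10.6 FPKM in cKO (log2 fold change -0.34, SE 0.12, limma adjusted p = 0.079). Its cKO libraries were below all its controls, without passing the test. Neighbours in this run thus ranged from a loss of nearly all RNA to 77.1% of the control mean left.

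**Figure D5:**
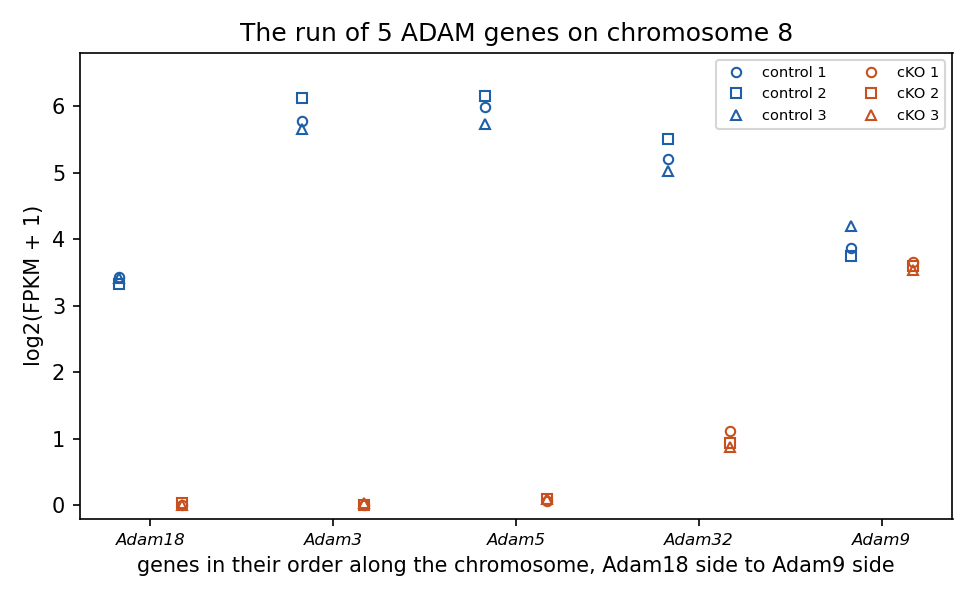
Levels of the 5 ADAM genes of the chromosome 8 run in their order along the chromosome (x axis), as log2(FPKM + 1) (y axis). Each mark is 1 library (blue control, orange cKO), and *Adam9* stays at 10.6 to 17.28 FPKM where its 4 neighbours lie at or below 1.17 FPKM in cKO.

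Genes with 1 coding exon formed 5 further groups. *Adam24*, *Adam25*, *Adam20* and *Adam39* lie on the plus strand within 152.0 kb (chr8:40675077-40827037), with 5 processed pseudogenes between them. *Adam26b*, *Adam26a* and *Adam34* lie on the minus strand within 190.3 kb (chr8:43519762-43710049). *Adam6b* and *Adam6a* (chr12:113489511-113546465) have immunoglobulin D segments between them. *Adam4* and *Adam21* lie within 149.0 kb (chr12:81419443-81568474), and *Adam1b* and *Adam1a* within 45.4 kb (chr5:121500098-121545482). *Adam2* (chr14:66027329-66077733), *Adam29* (chr8:55870912-55906948) and *Adam30* (chr3:98160630-98164169) stand outside these groups.

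Genes needed to mature sperm ADAM proteins moved in the same direction as the testis ADAM genes, with exceptions. Of 13 listed, 12 were tested and 9 were lower (median log2 fold change -2.38), against 22.2% of all genes tested. Since *Pdilt*, *Prss37*, *Pmis2*, *Cmtm2a* and *Cmtm2b* passed the filter through their control level alone, that count was partly fixed by the filter. Without the filter, 8 of the 13 were lower, against 12.1% of all genes, and *Calr3* was the call lost. None was higher by limma or by limma-voom, and none had an unadjusted p under 0.05 in that direction. *Clgn*, the calmegin chaperone on which ADAM1 and ADAM2 fold together, was at 56.41, 52.76 and 51.42 FPKM in control and 13.09, 10.35 and 14.45 FPKM in cKO (log2 fold change -2.01, SE 0.12, limma adjusted p = 3.64e-05). *Calr3*, a testis calreticulin needed for ADAM3, was at 10.18, 27.93 and 12.52 FPKM in control and 6.325, 4.525 and 6.874 FPKM in cKO (log2 fold change -1.26, SE 0.35, limma adjusted p = 0.0308). This call was also lost without control replicate 3 or any 1 cKO library (limma adjusted p = 0.0506 to 0.0927). *Pdilt*, its disulfide isomerase partner, was at 5.802, 14.3 and 7.603 FPKM in control and at 0 in each cKO library (limma adjusted p = 0.0002). The chaperones thus differed in how much was left.

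*Cmtm2a* and *Cmtm2b*, neighbouring genes for membrane proteins on which ADAM3 on sperm depends, were at 22.18 to 36.01 and 51.17 to 58.2 FPKM in control and both at 0 in cKO (limma adjusted p = 4.36e-06 and 4.69e-07). *Prss37* was at 11.57, 53.51 and 16.06 FPKM in control and at 0 in cKO (limma adjusted p = 0.000611). *Pcsk4*, a proprotein convertase of sperm, was at 18.64 to 25.74 FPKM in control and 5.336 to 6.384 FPKM in cKO (log2 fold change -1.74, SE 0.14, limma adjusted p = 0.000119). *Ace*, whose testis form acts on sperm, was at 14.33 to 37.01 FPKM in control and 1.912 to 2.091 FPKM in cKO, and *Pmis2* at 7.691 to 21.09 FPKM and 0.7284 to 0.8793 FPKM (limma adjusted p = 0.000857 and 0.00106). These 6 genes all fell clear of their control ranges.

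A group of 3 genes of this list was not called. *Tex101*, a germ cell surface protein that ADAM3 needs, was at 610.0, 464.3 and 620.1 FPKM in control and 527.2, 650.4 and 452.1 FPKM in cKO (log2 fold change -0.06, SE 0.17, limma adjusted p = 0.811). *Ly6k*, its binding partner, was at 154.9 to 177.1 FPKM in control and 173.0 to 272.8 FPKM in cKO (limma adjusted p = 0.232). *Tpst2*, a tyrosine sulfotransferase, was at 5.733 to 7.849 FPKM and 5.942 to 7.161 FPKM (limma adjusted p = 0.653). All 3 overlapped between the groups. *Rnase10* was below the filter, at 0.1094 to 0.431 FPKM in control and at 0 in cKO.

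Among the shedding ADAM genes *Adam17* alone was called by limma, and how many were called higher depended on the method. Of 9 members, 6 were tested, 1 was higher (11.8% of all genes were) and none was lower (22.2% of all genes were), with a median log2 fold change of 0.23. At an unadjusted p under 0.05, 3 of the 6 were higher and 1 was lower, a threshold for which no share of all genes is given here. Of the same 6, limma-voom called 2 higher (*Adam10* and *Adam17*; 16.2% of all genes) and quantile normalization 5 (33.4% of all genes), and both called none lower. *Adam17*, the enzyme that releases TNF and ligands of the EGF receptor, was at 14.49, 12.8 and 15.3 FPKM in control and 17.12, 20.23 and 17.6 FPKM in cKO. That was 1.29-fold higher (log2 fold change 0.35, SE 0.10, limma adjusted p = 0.0348), but the call was lost without the filter (limma adjusted p = 0.0581) and without either of control replicates 1 and 2 or any 1 cKO library (limma adjusted p = 0.0539 to 0.0932).

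*Adam10*, the sheddase that cuts Notch receptors, was the most abundant of the group, with 29.35, 23.7 and 28.48 FPKM in control and 34.34, 35.11 and 29.15 FPKM in cKO (log2 fold change 0.27, SE 0.11, limma adjusted p = 0.107). *Adam15* was at 10.54, 11.21 and 11.75 FPKM in control and 12.4, 12.62 and 13.88 FPKM in cKO (limma adjusted p = 0.108). *Adam8*, known from leukocytes, was at 1.204, 1.336 and 1.633 FPKM in control and 1.798, 1.914 and 2.227 FPKM in cKO (limma adjusted p = 0.12). For *Adam15* and *Adam8* each cKO library was above the control libraries, for *Adam10* the groups overlapped, and none of the 3 passed this test. *Adam10* was called higher by limma-voom (adjusted p = 0.0365), and with quantile normalization all 3 were (limma adjusted p = 0.03, 0.0144 and 0.009 for *Adam10*, *Adam15* and *Adam8*).

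*Adam33* was at 0.883 to 1.511 FPKM in control and 1.085 to 1.391 FPKM in cKO (limma adjusted p = 0.656). *Adam19* (0.2474 to 0.3576 and 0.3647 to 0.5635 FPKM) and *Adam12* (0.1234 to 0.1837 and 0.1926 to 0.2302 FPKM) were below the filter. *Adam28* and *Adam7* had no fragment in any library, which leaves each under the floor of 3 fragments per library. In order of control mean, *Adam10* led at 27.18 ± 3.04 FPKM (SD, n = 3), followed by *Adam9* at 14.42 ± 2.55, *Adam17* at 14.2 ± 1.27 and *Adam15* at 11.17 ± 0.606. *Adam9* and *Adam17* did not differ beyond their spread.

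Markers of somatic cells, which also express these sheddases, were measured beside them. Of 29 such markers, 14 were tested, 1 was higher (*Rhox5*, of Sertoli cells) and none was lower by limma, against 11.8% and 22.2% of all genes, with 2 higher and none lower at an unadjusted p under 0.05 and 2 higher and none lower by limma-voom. Sertoli markers summed to 28.4 to 42.38 FPKM in control and 25.72 to 70.01 FPKM in cKO, with cKO replicate 1 the highest. *Adam17* had its lowest cKO level in that library, at 17.12 FPKM, whereas *Rhbdf1*, *Furin*, *Hbegf*, *Notch1* and *Notch2*, described next, were each highest there. The part of somatic cells in any of these levels was not tested.

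Genes that regulate or meet the sheddases were mostly not called. Of 13 regulators, 10 were tested and 1 was higher, a share near the 11.8% of all genes, and the median log2 fold change was 0.20. At an unadjusted p under 0.05, 3 were higher, with no share of all genes given for that threshold. The limma-voom fit called 2 higher (*Rhbdf1* and *Furin*), near the 16.2% of all genes it called. Quantile normalization called 5, where 33.4% of all genes were called. *Rhbdf1*, encoding an inactive rhomboid that escorts ADAM17 to the surface, was at 2.771, 2.69 and 3.064 FPKM in control and 6.302, 4.098 and 4.347 FPKM in cKO (log2 fold change 0.61, SE 0.16, limma adjusted p = 0.0252). The call was lost without any 1 control library or cKO replicate 3 (limma adjusted p = 0.052 to 0.0733), and kept without cKO replicate 1 (log2 fold change 0.44, limma adjusted p = 0.0459). Its relative *Rhbdf2* was at 10.3 to 12.62 FPKM and 12.05 to 16.83 FPKM (limma adjusted p = 0.121). *Tspan14*, a tetraspanin that accompanies ADAM10, was at 22.11 to 24.1 FPKM and 24.47 to 27.03 FPKM (limma adjusted p = 0.0969), and *Furin*, which cuts off the inhibitory prodomain, was at 5.411 to 6.604 FPKM and 6.429 to 9.195 FPKM (limma adjusted p = 0.0928). Of 5 inhibitor genes, *Timp2* and *Reck* were tested and not called (limma adjusted p = 0.356 and 0.335), with none of either direction at an unadjusted p under 0.05 or by limma-voom.

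Of 18 substrates and ligands, 11 were tested, 2 were higher and 1 was lower (median log2 fold change 0.14), against 11.8% higher and 22.2% lower among all genes. On the same 11, limma-voom called 4 higher (*Notch1*, *Notch2*, *Hbegf* and *Il6ra*) and 1 lower, and quantile normalization called 6 higher and none lower, with 1 lower at an unadjusted p under 0.05. Of all genes, these called 16.2% and 33.4% higher. Without the filter, limma called 1 of the 18 higher and 2 lower, against 4.37% and 12.1% of all genes. *Hbegf*, an EGF receptor ligand that ADAM17 sheds, was at 2.098, 2.337 and 2.046 FPKM in control and 7.08, 5.18 and 4.963 FPKM in cKO (log2 fold change 1.08, SE 0.14, limma adjusted p = 0.00147), and without cKO replicate 1 it was still called (log2 fold change 0.94, limma adjusted p = 0.00382). *Notch2* was at 5.321, 5.888 and 5.946 FPKM in control and 8.193, 6.752 and 7.744 FPKM in cKO (log2 fold change 0.35, SE 0.10, limma adjusted p = 0.0376). Its call was lost without the filter (limma adjusted p = 0.0566) and without any 1 control library or either of cKO replicates 1 and 3 (limma adjusted p = 0.0557 to 0.123). *Cdh2*, the N-cadherin gene whose product ADAM10 cleaves, was at 5.682, 4.198 and 5.698 FPKM in control and 2.896, 2.15 and 2.7 FPKM in cKO (log2 fold change -0.79, SE 0.15, limma adjusted p = 0.00712), a call lost with quantile normalization (log2 fold change -0.47, limma adjusted p = 0.0502). None of these 3 overlapped between groups. *Tgfa*, of the same list, was below the filter and lower in every cKO library than in any control. It was at 0.4008 to 0.5425 FPKM in control and 0.03157 to 0.1318 FPKM in cKO. *App* was at 17.39 to 27.85 FPKM in control and 15.16 to 18.69 FPKM in cKO and was not called (limma adjusted p = 0.083). *Kit*, at 36.3 to 37.13 FPKM in control and 40.97, 38.13 and 42.0 FPKM in cKO, was above all controls and not called (limma adjusted p = 0.15), and *Notch1* was at 0.7849 to 0.9352 FPKM and 1.329 to 2.571 FPKM (limma adjusted p = 0.0658).

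Among the neural members, *Adam22* was at 1.494, 1.601 and 1.813 FPKM in control and 2.191, 2.865 and 2.329 FPKM in cKO (log2 fold change 0.39, SE 0.13, limma adjusted p = 0.062). *Adam11* lay the other way, at 3.555, 2.233 and 2.539 FPKM in control and 2.088, 1.879 and 1.892 FPKM in cKO (log2 fold change -0.34, SE 0.16, limma adjusted p = 0.141). Neither overlapped between groups and neither was called by limma, although 1 had an unadjusted p under 0.05 and limma-voom called *Adam22* higher. *Adam23* was at 0.3487 to 0.5246 FPKM and 0.4833 to 0.8046 FPKM, below the filter. Their ligands *Lgi1*, *Lgi3* and *Lgi4* were at or below 0.2802 FPKM in every library, and *Lgi2* was at 0.6376 to 1.219 FPKM in control and 0.312 to 0.4917 FPKM in cKO.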

How the data were processed

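RNA-seq of STRA8+ mouse testis cells was analysed in 3 control and 3 cKO libraries, grouped by their labels. The authors deposited 1 table of FPKM per gene with gene lengths. The submitters' processing notes name HISAT2 2.0.5 and mm10, and the counting tool and strand setting are not given in the sources used here. FPKM times gene length was divided by its smallest value above 0 in each library, taken as 1 fragment. This gave whole fragments for 100% of values (tolerance 0.05). In all, 15364511 to 17310353 fragments per control library and 14447887 to 15326722 per cKO library were recovered. The library size implied by FPKM was 0.9711 (control replicate 1) to 1.052 (cKO replicate 3) times the recovered total. Depth limits low genes, with a floor of 3 fragments per library. Intervals and floors cover counting error only.

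Genes that averaged 1 FPKM or more were tested on log2(FPKM + 1) with limma 3.58.1 in R 4.3.3 (lmFit, eBayes with trend), with Benjamini-Hochberg adjustment over all 15451 genes tested, adjusted p at most 0.05. An exact permutation test of 3 against 3 libraries cannot give p below 0.1. Every member called was named with its values in the 6 libraries, as FPKM or fragments, and the partner and marker lists were named whole or by counts. Members, roles and lists were chosen with earlier results of these data known. The symbols Adam34l, Adam36, Adam37 and Adam38 of the role lists were not analysed here. Gene structure came from GENCODE and promoters from RefSeq, both on GRCm38. Alternatives were another pseudocount, other filters, other scaling, no trend, limma-voom on recovered fragments, a minimum fold change, a replicate block and leaving out each library. The code was tested on simulated data. Replicates differed by more than sampling noise (chi-square per degree of freedom 6.5 to 25.64), so none was counted as a duplicate.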

Additional observations from a re-analysis of the deposited data

How the results depend on the processing

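Under the 15 alternatives, *Srsf1* ranged from -3.50 to -3.03 on the log2 scale and was called in each. The 16 ADAM genes lower in cKO numbered 4 with a mean of at least 5 FPKM, where 8 members were tested, 13 with quantile normalization, 20 without the filter and 16 or 17 without single libraries. The 1 ADAM gene higher, *Adam17*, was lost, leaving 0, without the filter, with a minimum absolute log2 fold change of 1, and in the fit with a replicate block (limma adjusted p = 0.109). Without the trend in eBayes, *Adam17* was lost (limma adjusted p = 0.0528) and *Adam22* gained (0.035). Without single libraries the count was 0 to 1, and it was 1 only without control replicate 3. It was 6 with quantile normalization and 3 with limma-voom. The 3 partner genes higher became 1 with a mean of at least 5 FPKM, with the minimum fold change and with the replicate block, 11 with quantile normalization and 6 with limma-voom, and 1 to 4 without single libraries (1 without any 1 control library or cKO replicate 3). Partner genes lower stayed at 8 to 11 (10 as designed). Quantile normalization moved the median of all genes to 0.22 on the log2 scale, with 5164 genes higher and 2527 lower against 1821 and 3437 as designed. The cause of these changes was not tested. Of the single ADAM genes, 323 values kept their side of the threshold, 12 lost it, 9 gained it and none reversed, and of the called partner genes 169 kept it, 22 lost it and none reversed. *Adam1a*, *Adam25* and *Adam39* lost it with quantile normalization (limma adjusted p = 0.0577, 0.0954 and 0.0516), and *Adam9* passed it without control replicate 2 (log2 fold change -0.43, limma adjusted p = 0.0369). Replicate numbers did not pair the libraries: deviations of same-numbered libraries correlated at -0.001, -0.111 and 0.016, and the replicate block called 891 genes higher and 2870 lower.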
